A study of Mus musculus with 2 samples.

Results

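The miR-106b-25 and miR-106a-363 clusters are the 2 paralogues of the miR-17-92 cluster, and their miRNAs were measured in exosomes of mouse pancreatic cancer cells and of a mouse line labelled as pancreatic ductal cells. The members were chosen by name, as the mature miRNAs of both clusters: mmu-miR-106b-5p, mmu-miR-93-5p and mmu-miR-25-3p of the miR-106b-25 cluster, and mmu-miR-106a-5p, mmu-miR-18b-5p, mmu-miR-20b-5p and mmu-miR-363-3p of the miR-106a-363 cluster. Of these 7 miRNAs, 6 had probes under their own name among the 1881 mouse miRNAs of the array, with 14 probes in all. The exception was miR-106a-5p, which shares its probes with miR-17-5p and is described with it. The prefix mmu, for mouse, is left out from here on.

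KPC cells are a cancer line from tumour tissue of mice that carry the alleles KrasLSL-G12D/+ and Trp53LSL-R172H/+, which Pdx1-Cre, active in the pancreatic lineage, switches on. MPDC cells are a purchased line labelled as ductal epithelium of the mouse pancreas, for which no engineered allele is given. The lines were kept in different media, with 20% serum for KPC cells and 10% for MPDC cells, and both were moved to medium with exosome-free serum before the supernatants were taken. Exosomes were pelleted by differential ultracentrifugation, and the Cy3-labelled RNA of each preparation was hybridized to 1 Agilent array. With 1 array for KPC-exosomes and 1 for MPDC-exosomes, there was no test between the groups, and the line, its medium and the array cannot be told apart.

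A miRNA cluster is made as a single primary transcript that Drosha and Dicer cut into separate mature miRNAs, which then guide Argonaute to mRNAs through the seed near their 5′ end. The family of the miR-17-92 cluster and its paralogues is highly active in embryonic and dividing cells, under E2F and Myc factors among others, and represses the cell cycle inhibitor p21 and the pro-apoptotic protein Bim. In the mouse, miR-106b, miR-93 and miR-25 lie within Mcm7, a gene of the replicative helicase, on chromosome 5, whereas the miR-106a-363 cluster lies on chromosome X, where Mir106a overlaps the noncoding gene Kis2. The probes that the files place put the clusters at chr5:138606570-138607037 and chrX:50094923-50095742 (mm9).

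The mature sequences are given because the clusters share their seeds and because the array separates close relatives by a few bases. They are those of RefSeq for GRCm38.p6, which held all 7 members, and bases 2 to 8, the seed, are in capitals.
miR-106b-5p: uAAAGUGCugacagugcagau
miR-93-5p: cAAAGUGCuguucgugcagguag
miR-106a-5p: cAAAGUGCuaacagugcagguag
miR-20b-5p: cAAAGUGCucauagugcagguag
miR-18b-5p: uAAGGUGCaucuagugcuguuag
miR-25-3p: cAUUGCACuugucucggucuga
miR-363-3p: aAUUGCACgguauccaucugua

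Of the members, 4 carry the seed AAAGUGC of miR-17, 2 carry the seed AUUGCAC of miR-25 and miR-92, and miR-18b-5p carries AAGGUGC. The nearest relatives of the miR-17-92 cluster on chromosome 14 are shown beside them, since they decide which probes can tell the members apart.
miR-17-5p: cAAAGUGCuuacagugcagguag
miR-20a-5p: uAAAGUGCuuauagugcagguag
miR-18a-5p: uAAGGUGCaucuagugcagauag

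Counted from the 5′ end, miR-106a-5p differs from miR-17-5p by U10A alone. Both probes named for miR-17-5p pair with later bases only, from base 12 or from base 11 to base 23, and so matched miR-106a-5p without a mismatch. Relative to miR-20a-5p, miR-20b-5p has U1C and U10C, and its probes cover the second of these, which left 1 mismatch to miR-20a-5p. Relative to miR-18a-5p, miR-18b-5p has A18U and A20U, and its probes had 2 mismatches to miR-18a-5p. The probes of miR-106b-5p had 2 mismatches to their nearest other miRNAs, those of miR-93-5p had 3, those of miR-25-3p had 4, and those of miR-363-3p had 6 and 7. Cross-hybridization between relatives was not tested.

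The signal of a miRNA is a background-subtracted intensity in arbitrary units, summed over the probes whose signal exceeded 3 times the error that the scanner software gave, and a miRNA without such a probe was not detected. Of all miRNAs, 772 were detected in KPC-exosomes, 1031 in MPDC-exosomes, 726 in both and 1077 in at least 1. KPC-exosomes gave the dimmer array: before normalization, 591 of the 726 miRNAs that both arrays detected were dimmer in it, with a median difference of -1.37 (log2). The 4 spike-in controls differed by 0.03 on average, with single values from -0.31 to 0.38. Quantile normalization, which equals the deposited values, moved the median of these 726 miRNAs to 0.53. Each difference is therefore the log2 signal of KPC-exosomes less that of MPDC-exosomes, on both scales, and is also set against these medians. Errors are those of the scanner software and cover the measurement on the array, not the spread between exosome preparations. Where KPC-exosomes lacked a miRNA, its bound there was the lowest signal that this array detected, 1.41. A stricter limit, 3 errors of every probe of the miRNA, was added after the values were seen, and "at least" is kept for it where folds of undetected miRNAs are given.

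All 6 members with probes of their own had a lower signal in KPC-exosomes, on both scales. Before normalization this was so for most miRNAs, 591 of the 726 that both arrays detected. After normalization the difference of miR-106b-5p was within the scanner error. In KPC-exosomes 4 of the 6 members were detected. The other members, miR-18b-5p and miR-363-3p, were found in MPDC-exosomes only, which was so for 28.3% of the miRNAs detected on at least 1 array. After quantile normalization 4 of the 6 members (66.7%) were at least 2-fold lower, namely miR-93-5p, miR-18b-5p, miR-20b-5p and miR-363-3p, against 42.7% of the miRNAs detected on at least 1 array. With undetected members at their bounds the count stayed at 4, against 24.6%. None was at least 2-fold higher, against 31.5%. Before normalization all 6 were at least 2-fold lower, against 68.0%. With undetected members at their bounds, the median difference of the 6 members was -3.21 on the normalized scale. Over the 905 miRNAs for which a normalized value or bound could be given, it was 0.30. Before normalization the median of the members was -5.21, against -1.60 over the miRNAs with a value or bound on that scale. The members are few and belong to 2 transcripts, so these shares describe the clusters and are no test.

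**Figure D1:**
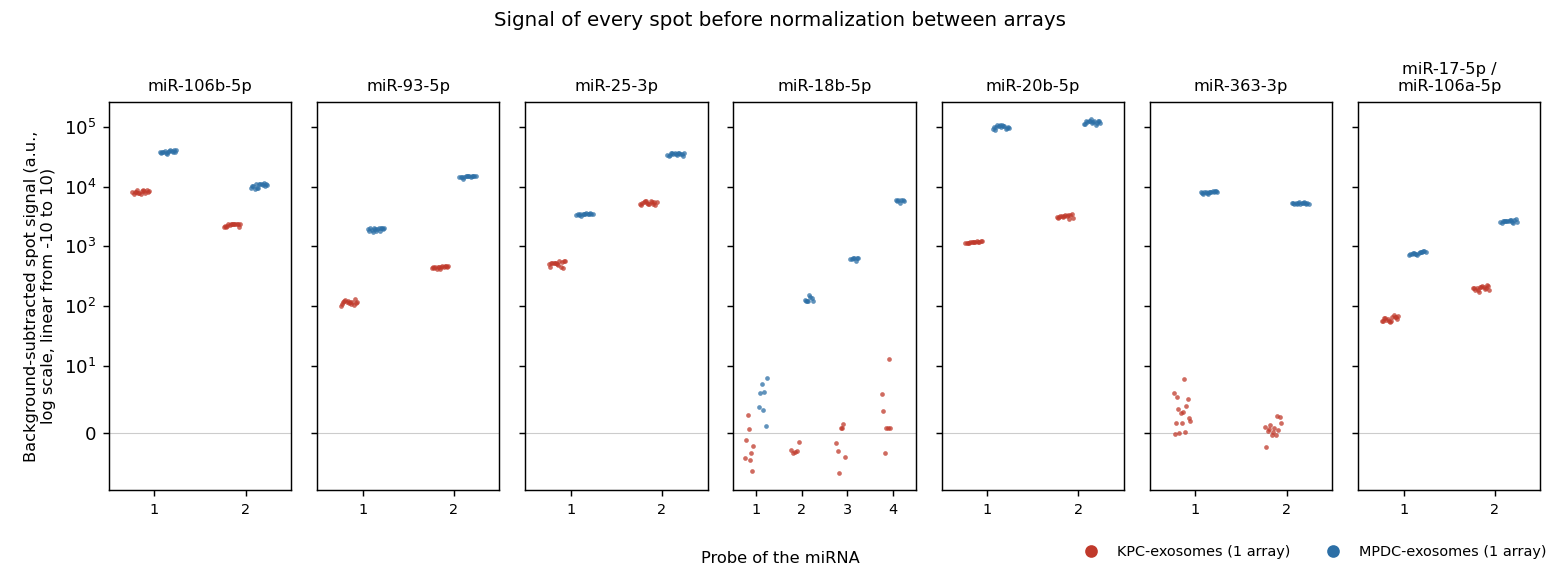
Background-subtracted signal of every spot (vertical axis, arbitrary units, log scale that is linear from -10 to 10) for each probe (horizontal axis) of the 6 members and of the probes shared by miR-17-5p and miR-106a-5p, before normalization, with KPC-exosomes in red and MPDC-exosomes in blue. The spots of both arrays lie apart for each probe detected on both, and the KPC-exosome spots of miR-18b-5p and miR-363-3p lie around 0.

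Within the miR-106b-25 cluster the members differed in size, although they come from a single transcript. The signal of miR-106b-5p, a repressor of p21, was 2971 ± 241 in KPC-exosomes against 13404 ± 1094 in MPDC-exosomes. The difference was -2.17 ± 0.17 before normalization (4.51-fold lower) and -0.16 ± 0.17 after it, where it was within the scanner error. It was the member nearest to the other miRNAs of the array, at -0.80 and -0.69 from the medians of the 2 scales.

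The signal of miR-25-3p, which shares its seed with miR-92a-3p, was 1674 ± 154 in KPC-exosomes against 10575 ± 967 in MPDC-exosomes. Its difference was -2.66 ± 0.19 before normalization (6.32-fold lower) and -0.85 ± 0.19 after it (1.80-fold lower), short of 2-fold on the normalized scale. Relative to the medians it lay at -1.29 and -1.38. Both scales thus placed it more than 2-fold below the middle of the array.

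The member of this cluster that stood apart was miR-93-5p, which has the same seed as miR-106b-5p. Its signal was 162 ± 13.3 in KPC-exosomes against 4581 ± 409 in MPDC-exosomes. The difference was -4.83 ± 0.18 before normalization (28.3-fold lower) and -3.18 ± 0.18 after it (9.05-fold lower). This placed miR-93-5p at the 5.10 and 4.13 percentile of the differences of the 726 miRNAs detected on both arrays. From the same host transcript, miR-93-5p and miR-106b-5p therefore gave differences that lay -2.65 (before) and -3.02 (after normalization) apart.

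The probes and spots of these 3 miRNAs gave the same directions. Each had 2 probes and 30 spots per array, all 30 well above background on both arrays, and no probe had overlapping spot values between the arrays. Before normalization the 2 probes of miR-106b-5p differed between the arrays by -2.18 and -2.14, and those of miR-25-3p by -2.70 and -2.66. Those of miR-93-5p gave -4.01 (15 bases) and -4.98 (16 bases), each ± 0.21 or less, so that they disagreed on the size by more than their errors. Spots of a probe share the RNA of their array and are no replicates of a condition.

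In the miR-106a-363 cluster the differences were larger. The signal of miR-20b-5p, the X-linked counterpart of miR-20a-5p, was 1239 ± 96.5 in KPC-exosomes against 60138 ± 4278 in MPDC-exosomes. Its difference was -5.60 ± 0.15 before normalization (48.5-fold lower) and -3.25 ± 0.15 after it (9.52-fold lower), at the 2.34 and 3.86 percentile. It was detected by both probes on both arrays, with all 30 spots well above background. The probe of 19 bases gave -6.35 and that of 20 bases -5.19, each ± 0.20, a gap larger than the errors.

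The other members of the cluster were seen on the MPDC-exosome array only. The signal of miR-363-3p, the last miRNA of the cluster and a carrier of the miR-25 seed, was 3659 ± 265 in MPDC-exosomes, with 30 of 30 spots well above background. In KPC-exosomes 0 of 30 spots were, and the 2 probes summed to 1.03. The fold relative to the dimmest signal detected there was 2602 before normalization and 435 after it. With both probes at 3 errors, miR-363-3p was at least 655-fold lower before and at least 182-fold lower after normalization. The normalized bound, -8.77 (log2), was -7.87 when detection took 5 errors and -7.95 with the totals of the scanner software. Normexp background correction, which adds an offset to every signal, was averaged over all probes without a detection filter and gave -5.68.

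The signal of miR-18b-5p was 849 ± 75.5 in MPDC-exosomes, from 3 of its 4 probes, and 22 of 30 spots were well above background. In KPC-exosomes no probe was detected, 0 of 30 spots were well above background and the 4 probes summed to -0.495. The fold relative to the dimmest detected signal was 604 before normalization and 105 after it. With its 4 probes at 3 errors, miR-18b-5p was at least 152-fold lower before and at least 43.8-fold lower after normalization. The normalized bound, -6.71 (log2), was -5.82 when detection took 5 errors and -6.06 with the totals of the scanner software. Normexp, which averages over all 4 probes without a detection filter besides adding an offset, gave -2.34. Its 4 probes of 16, 17, 18 and 19 bases gave 0.758 (not detected), 19.4, 80.0 and 750 in MPDC-exosomes, so that its sum rested mainly on the longest probe.

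The remaining member, miR-106a-5p, had no value of its own. The probes that it shares with miR-17-5p gave 74.8 ± 6.14 in KPC-exosomes and 941 ± 75.8 in MPDC-exosomes. The difference was -3.65 ± 0.17 before normalization (12.6-fold lower) and -1.97 ± 0.17 after it (3.90-fold lower). How much of either signal came from chromosome X and how much from chromosome 14 cannot be told apart on this array.

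**Figure D2:**
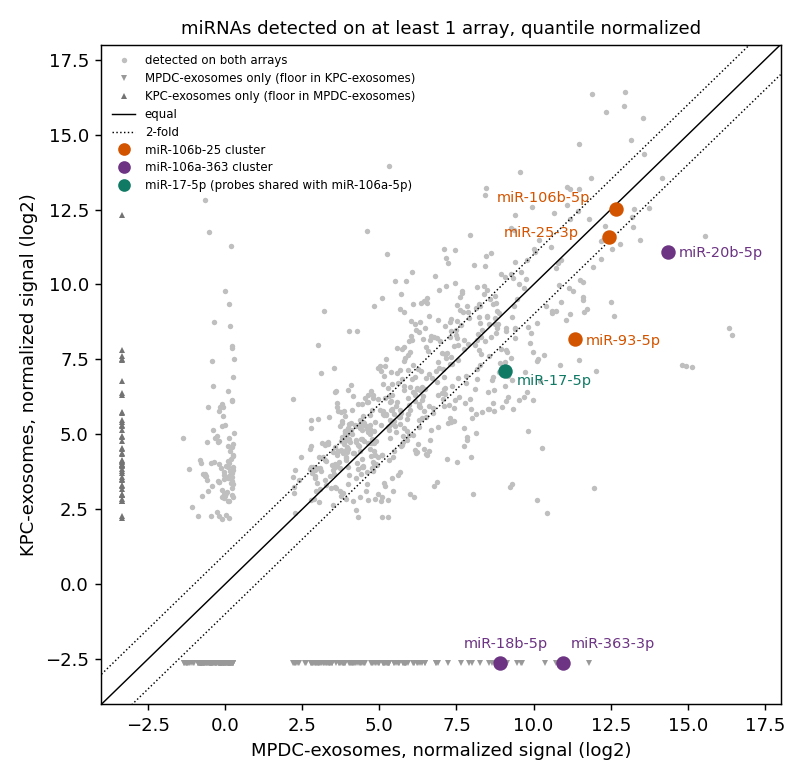
Normalized signal (log2) of the 1077 miRNAs detected on at least 1 array, in MPDC-exosomes (horizontal axis) and KPC-exosomes (vertical axis), with undetected signals at the floor of that array. The members of the miR-106b-25 cluster are orange, those of the miR-106a-363 cluster purple and miR-17-5p green, and all lie below the line of equal signals, with miR-18b-5p and miR-363-3p at the floor of KPC-exosomes.

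The median difference was -0.85 for the miR-106b-25 cluster and -6.71 for the miR-106a-363 cluster on the normalized scale, with 3 members each and undetected members at their bounds. Before normalization the medians were -2.66 and -9.24. With undetected members at 3 errors of every probe, the normalized median of the miR-106a-363 cluster was -5.45. The clusters overlapped on the normalized scale to within the scanner error, since miR-93-5p at -3.18 ± 0.18 and miR-20b-5p at -3.25 ± 0.15 did not differ beyond it. In order of the normalized difference the members ran from miR-106b-5p through miR-25-3p, miR-93-5p and miR-20b-5p to miR-18b-5p and miR-363-3p. The last 2 have bounds, so their own order is not known.

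The other arms of both hairpins were dim. Of 9 such strands on the array, 3 were detected in KPC-exosomes and 6 in MPDC-exosomes. All 6 had the lower signal in KPC-exosomes before normalization, as had 591 of the 726 miRNAs that both arrays detected. Neither array detected the remaining strands. After normalization 3 of the 6 detected strands were at least 2-fold lower and 1 at least 2-fold higher, with the floor as the signal of undetected strands. Over all miRNAs detected on at least 1 array these shares were 42.7% and 31.5%. With bounds 1 of the 6 was at least 2-fold lower, miR-20b-3p, and 1 higher, the dim miR-93-3p, against 24.6% lower. Their median, with bounds, was -2.93 before normalization over all 6. After it the median was -0.26 over 5 strands, since miR-92a-2-5p had no normalized bound.

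In the miR-106b-25 cluster, miR-106b-3p was measured at 10.2 ± 1.11 in KPC-exosomes against 40.2 ± 3.82 in MPDC-exosomes, which differ by -1.98 before and by -0.26 after normalization. These differences were close to those of miR-106b-5p, the other arm of its hairpin. For miR-93-3p the signals, each from 1 probe, were 1.55 ± 0.460 and 7.59 ± 0.892, and the direction turned with the scale, from -2.29 before normalization to 2.47 after it. These signals were dim. The lowest detected signals, 1.41 in KPC-exosomes and 1.51 in MPDC-exosomes before normalization, came to 2.19 and -1.36 (log2) after it. Normalization thus raised dim signals in KPC-exosomes relative to MPDC-exosomes, so the turned direction is not read as a contrast to miR-93-5p. The third strand, miR-25-5p, was not detected on either array.

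In the miR-106a-363 cluster, miR-20b-3p was not detected in KPC-exosomes and gave 107 ± 9.23 in MPDC-exosomes, at least 19.3-fold lower before and at least 5.19-fold lower after normalization. The weaker strand of miR-363, miR-363-5p, was likewise found in MPDC-exosomes only, at 14.8 ± 1.79, and was at least 2.66-fold lower before normalization. The strand miR-92a-2-5p was at 13.9 ± 1.28 in MPDC-exosomes only, at least 2.49-fold lower before normalization, and after normalization this limit gave no fold for either strand. Neither miR-106a-3p, which would report on the miR-106a hairpin alone, nor miR-19b-2-5p was detected on either array.

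The arms of miR-18b differed in detection. Although miR-18b-5p was not detected in KPC-exosomes, miR-18b-3p gave 10.9 ± 1.53 there against 63.8 ± 5.25 in MPDC-exosomes, which differ by -2.55 before and by -0.77 after normalization. Its 2 probes differed between the arrays by -1.50 ± 0.33 and -3.17 ± 0.33 before normalization. Both had 2 mismatches to miR-18a-3p, which was itself detected in MPDC-exosomes only.

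**Figure D3:**
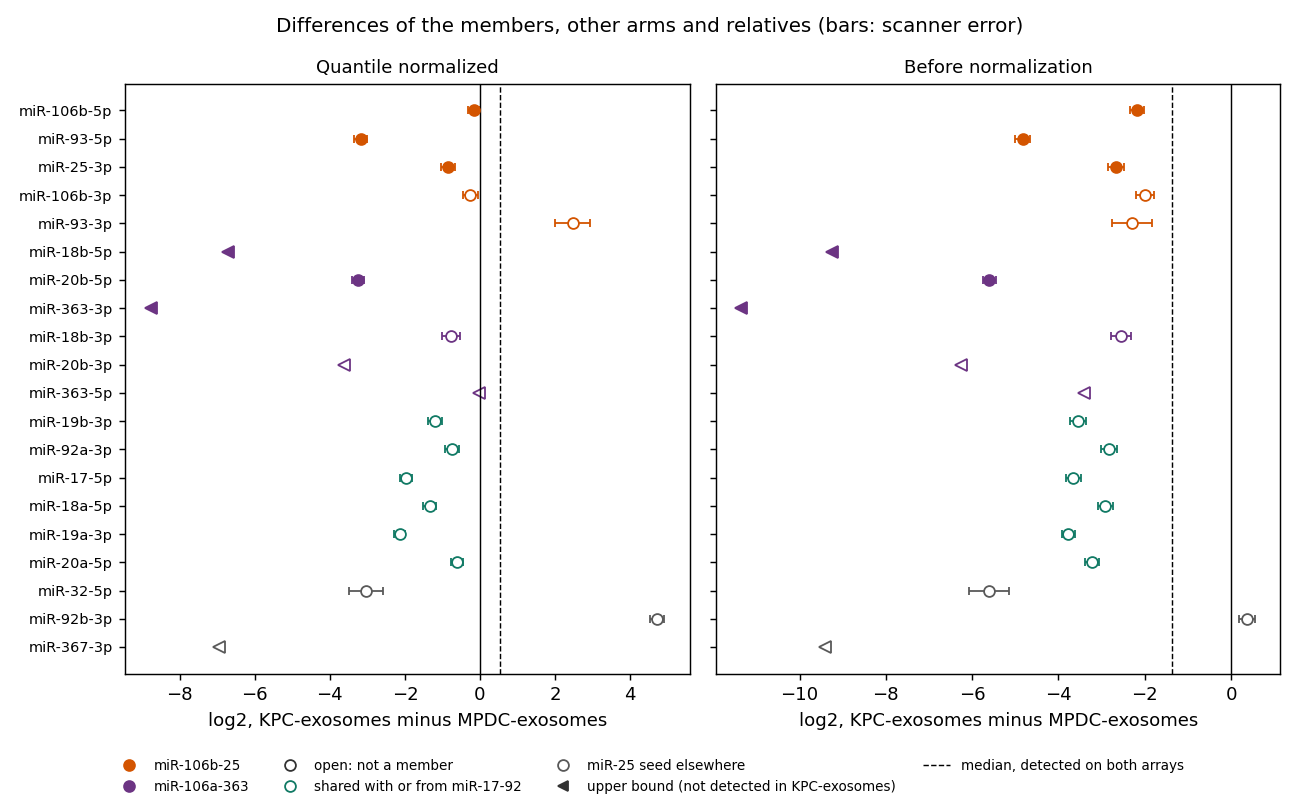
Differences (log2, KPC-exosomes minus MPDC-exosomes, horizontal axes) after quantile normalization (left) and before it (right) for members (filled) and for other arms and relatives (open), with scanner errors as bars, bounds as triangles and the median of the miRNAs that both arrays detected as a dashed line. The members lie to the left of the dashed line on both scales, whereas miR-93-3p lies to its right after normalization and miR-92b-3p on both scales. Both of these are dim, and normalization raised dim signals in KPC-exosomes relative to MPDC-exosomes.

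Of the mature miRNAs that the miR-106a-363 and miR-17-92 clusters both encode, miR-19b-3p was at 2993 ± 271 in KPC-exosomes against 35029 ± 3089 in MPDC-exosomes, with differences of -3.55 before and -1.21 after normalization. For miR-92a-3p the signals were 2981 ± 270 and 21114 ± 1872, with differences of -2.82 and -0.75. Both lay below the medians of the array, and neither can be assigned to one locus.

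The relatives that come from the miR-17-92 cluster were lower in KPC-exosomes too, with a median of -1.65 after and -3.44 before normalization. After it 3 of the 4 were at least 2-fold lower, against 42.7% of the miRNAs detected on at least 1 array. This list holds miR-17-5p, given above with miR-106a-5p. For miR-18a-5p the signals were 922 ± 76.6 in KPC-exosomes and 6959 ± 579 in MPDC-exosomes, with differences of -2.92 before and -1.34 after normalization. It was thus measured on both arrays, while its paralogue miR-18b-5p was not detected in KPC-exosomes.

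For miR-20a-5p the signals were 5083 ± 391 and 47349 ± 3573, with differences of -3.22 before and -0.61 after normalization. The difference of miR-20b-5p was below that of miR-20a-5p on both scales. For miR-19a-3p, whose seed no member has, the signals were 421 ± 31.7 and 5769 ± 431, with differences of -3.77 and -2.14.

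The seed of miR-25-3p and miR-363-3p also occurs in 3 miRNAs of other loci. One of them, miR-32-5p, was at 1.49 ± 0.460 in KPC-exosomes against 72.5 ± 4.42 in MPDC-exosomes, with differences of -5.61 before and -3.04 after normalization. These sums rest on 1 detected probe in KPC-exosomes and 3 in MPDC-exosomes. Before normalization the sums over all 4 probes differed by -4.63, and the only probe detected on both arrays by -4.40 ± 0.47.

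The summed signal of miR-92b-3p was 15.7 ± 1.33 in KPC-exosomes against 12.2 ± 1.17 in MPDC-exosomes, with differences of 0.37 before and 4.72 after normalization. These dim and similar signals came to 4.87 and 0.14 (log2) after normalization, which raised dim signals in KPC-exosomes as described for miR-93-3p. The normalized difference is therefore not read as a rise. The probes of miR-92b-3p disagreed: before normalization those of 10, 11 and 12 bases gave -0.21, -0.49 and -0.32, and that of 13 bases gave 1.44. The probe of 10 bases also matched miR-6909-3p with 0 mismatches. The pluripotency miRNA miR-367-3p was found in MPDC-exosomes only, at 953 ± 68.5, at least 171-fold lower in KPC-exosomes before and at least 51.4-fold lower after normalization.

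The miRNA nearest to miR-93-5p in its 2 normalized signals was miR-29c-3p, at a distance of 0.70 (log2), with 246 ± 17.6 in KPC-exosomes and 3728 ± 265 in MPDC-exosomes and a normalized difference of -2.24. The nearest to miR-20b-5p was miR-7036a-5p, at a distance of 0.98, with 1581 ± 113 and 25094 ± 1777 and a normalized difference of -1.96. This likeness rests on 2 arrays.

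Since the arrays differ in brightness, the members were also followed under 7 normalizations, no normalization among them. The median of the miRNAs that both arrays detected ranged from -1.40 to 0.53 over these. Relative to that median, miR-93-5p ranged from -3.71 to -3.12 and miR-20b-5p from -4.23 to -3.52. Scaling by a single factor per array leaves such a position unchanged by construction, so the 5 settings of that kind gave the same values, and only the quantile settings could move them.

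Relative to the same median, miR-25-3p ranged from -1.38 to -0.83 and miR-106b-5p from -0.80 to -0.13. With bounds, miR-18b-5p ranged from -8.47 to -7.24 and miR-363-3p from -10.41 to -9.29, and the shared probes of miR-17-5p and miR-106a-5p from -2.49 to -2.16. A rule added after the values were seen took only the 4 members that both arrays detected. Of these, 3, miR-93-5p, miR-25-3p and miR-20b-5p, were at least 2-fold below the median both with quantile normalization and without normalization. The same held for 28.2% of the miRNAs detected on both arrays.

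**Figure D4:**
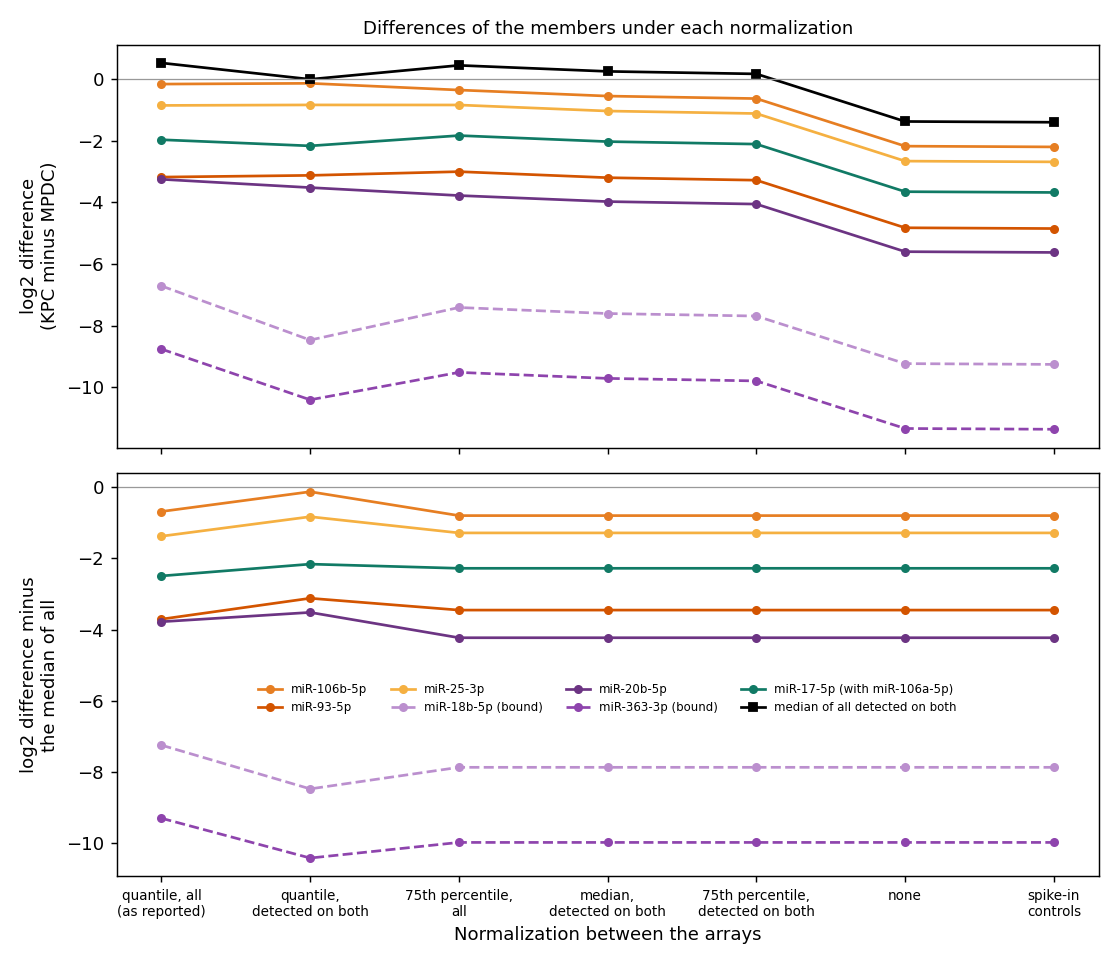
Differences (log2, KPC-exosomes minus MPDC-exosomes) of the members and of the probes shared by miR-17-5p and miR-106a-5p under 7 normalizations (horizontal axis), as such (top) and after subtraction of the median of the miRNAs that both arrays detected (bottom), with bounds dashed. In the lower panel the 5 settings on the right, which scale an array by 1 factor or by none, coincide by construction, and the members lie below 0 in all 7.

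Marker miRNAs of the labelled cells differed between the arrays as well. Of 7 epithelial miRNAs, 7 were detected in MPDC-exosomes and 5 in KPC-exosomes, where miR-203-3p and miR-205-5p were not, and their summed signals were 1781 and 98.8. All marker sums are before normalization, when the detected signals of all miRNAs summed to 1.40624e+06 in MPDC-exosomes and 429230 in KPC-exosomes. The median difference of the epithelial miRNAs, with bounds, was -1.47 after and -3.53 before normalization. Of 5 miRNAs enriched in the pancreas, 1 was detected on each array, miR-148a-3p in MPDC-exosomes and miR-217-5p in KPC-exosomes, and miR-216a-5p, miR-216b-5p and miR-375-3p on neither, with summed signals of 1190 and 60.9. On each array 4 of the 5 were thus undetected.

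All 11 miRNAs typical of pluripotent cells were detected in MPDC-exosomes, with a summed signal of 484290. In KPC-exosomes 6 were, with a summed signal of 657, and miR-302a-3p, miR-302b-3p, miR-302c-3p, miR-302d-3p and miR-367-3p were not. All 11 were at least 2-fold lower in KPC-exosomes on both scales, also with bounds. Of the miRNAs detected on at least 1 array, this held for 42.7% after normalization (24.6% with bounds) and 68.0% before it. The median of the 11 pluripotency miRNAs was -6.95 after and -9.32 before normalization. Such miRNAs are not typical of ductal epithelium, and their level in MPDC-exosomes goes against that label. They were lower where the members were lower, and their part in the members' differences was not tested.

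Of 5 mesenchymal miRNAs, 5 were detected in MPDC-exosomes and 0 in KPC-exosomes, where all defining markers were undetected, with summed signals of 226 and 0. Their signals in MPDC-exosomes were dim, at most 156. Of the miRNAs detected on at least 1 array, 28.3% were found in MPDC-exosomes only. With bounds, 3 of the 5 mesenchymal miRNAs were at least 2-fold lower after normalization, against 24.6% of the miRNAs detected on at least 1 array. Of 6 blood cell miRNAs, 5 were detected in MPDC-exosomes and 4 in KPC-exosomes, where miR-150-5p and miR-144-3p were not, with summed signals of 475 and 250.4. The largest part of the latter was miR-142a-3p, which was higher in KPC-exosomes, at 188 ± 14.0 against 29.1 ± 2.59, and differed by 2.69 before and 4.42 after normalization. With bounds, the median difference of the mesenchymal miRNAs was -3.55 before normalization, over all 5. After normalization it was -1.21 over 4 of them, since miR-145a-5p had no normalized bound. For the blood cell miRNAs the median was -0.66 after and -2.52 before normalization. The part of these cell types in the members' differences was not tested either. In bulk exosome RNA, fewer vesicles of a kind and less of a miRNA per vesicle cannot be told apart.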

How the data were processed

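miRNAs were measured on 2 one-colour Agilent arrays that lay on the same slide, 1 per group, and grouped by their labels. The authors deposited scanner output, with signals and errors as intensities in arbitrary units from Agilent Feature Extraction 10.7.1.1 (9.1 per the labels), background-subtracted within each array. They also deposited log2 values normalized in GeneSpring by a method not given in the sources used here. Total signals of probes above 3 errors were summed per miRNA, undetected miRNAs were set to a floor of 0.1, and the log2 values were quantile normalized with 21 control features, within 1.11e-05 of the deposited values. This forces equal distributions on both arrays, so a difference in total miRNA is removed. Calls followed the study's filter, a difference of 2-fold or more in a miRNA that at least 1 of the arrays detected. With 1 array per group there was no test, SD or p-value, and the number of arrays limits the precision. A bound was set against the higher of the lowest detected signal of the other array and the miRNA's own sum over all its probes. A limit of 3 errors for every probe of the miRNA was added after the data were seen. None of the 56430 miRNA spots of either array was saturated.

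The members and lists were chosen with earlier results of these data known. Named were the members, the other arms, the relatives, the miRNA nearest to the member with the largest measured difference in each cluster, and marker lists (epithelial, pancreas, pluripotent, blood, mesenchymal) as counts, sums and the markers that were undetected. Alternatives covered the normalization, the background, the summary of probes, the floor and the detection and fold thresholds. Sequences and neighbouring genes came from RefSeq tables for GRCm38.p6, and positions from the files (mm9). Quantile normalization was tested on simulated arrays without undetected signals, so that test does not cover the unequal detection of the real arrays. Python 3.11.15, numpy 2.4.6, pandas 2.3.3, matplotlib 3.10.9, R 4.3.3 and limma 3.58.1 were used. Other measurements of the study were not analysed here.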

Additional observations from a re-analysis of the deposited data

How the results depend on the processing

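As reported, the difference of miR-106b-5p was within its scanner error. All 6 members stayed lower in KPC-exosomes under each of the 16 settings in which a difference was computed. At least 2-fold lower were 4 of them as reported and 2 when detection on both arrays was required, since miR-18b-5p and miR-363-3p then drop out by construction. The count was 5 with scaling by the median or the 75th percentile of the miRNAs that both arrays detected (processed signal and raised floor included) and with a difference above 2 scanner errors, and 6 with no normalization and with the spike-in controls. It was 3 of the 4 members that both arrays detected, relative to the median with and without normalization. That rule was added after the data were seen and leaves out miR-18b-5p and miR-363-3p by construction. The median of the miR-106b-25 cluster moved from -0.85 to -2.66 with no normalization and to -2.68 with the spike-in controls. The median of the miR-106a-363 cluster, -6.71 as reported, and its difference from that of the miR-106b-25 cluster, -5.86, were -9.24 and -6.58 with no normalization, -9.26 and -6.58 with spike-in controls, -7.69 and -6.58 with the 75th percentile of the miRNAs that both arrays detected (with or without a floor at the lowest detected signal), -7.61 and -6.58 with their median, -7.41 and -6.58 with the 75th percentile of all miRNAs, -8.47 and -7.64 with quantiles over the miRNAs that both arrays detected, -6.06 and -5.25 with the Feature Extraction totals, -7.79 and -6.60 with the processed signal, -3.54 and -2.70 with normexp, and -5.45 and -4.60 with undetected members at 3 errors of every probe, also added after the data were seen. The cause was not tested, but miR-18b-5p and miR-363-3p have bounds, which depend on the lowest detected signal of the KPC-exosome array. Normexp adds an offset of 50 to every signal and was averaged over all probes without a detection filter. Without normalization the lowest detected signal was 1.41 in KPC-exosomes against 1.51 in MPDC-exosomes, which limits what an undetected signal can show. No paired analysis was possible because each group had 1 array. No array could be left out for the same reason.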

Other observations

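The total per miRNA that Feature Extraction writes exceeded or fell short of the sum of the detected probes by more than 0.001 for 143 miRNAs in KPC-exosomes and 182 in MPDC-exosomes. For miR-18b-5p in MPDC-exosomes the total was 913.0 against a sum of 849.2, an excess of 63.8 that equals the signal of miR-18b-3p. For miR-20b-3p the total in MPDC-exosomes was 47456 against 107, an excess of 47349 that equals the signal of miR-20a-5p. For miR-363-5p it was 3674 against 14.8, an excess of 3659 that equals the signal of miR-363-3p. For miR-106b-3p the totals were 725 in KPC-exosomes and 5289 in MPDC-exosomes against 10.2 and 40.2, and the excess equals the signal of miR-103-3p. These totals were not used for the values above.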
